A study of Homo sapiens with 32 samples.

Results

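The levels of 10 genes of the NF-kB pathway were followed through 32 RNA-seq libraries: the feedback inhibitors NFKBIA, NFKBIE and TNFAIP3, the subunit genes NFKB1, NFKB2 and RELB, and the cytokine genes CXCL8, IL6, CXCL1 and CCL2. They were picked by gene symbol, by summing all transcripts assigned to each symbol, and are 10 of 18861 genes with matched transcripts. The libraries came from 4 established human cancer cell lines labelled A375 (melanoma), Cal51 and MDA-MB-231 (breast cancer) and DLD1 (colorectal cancer). For each line there were cells with a G579S mutation, which the design text calls resistant to inhibition of CDK11, and wild-type cells, which it calls sensitive. Both genotypes received OTS964, a small-molecule inhibitor of the kinase CDK11, at 100 nM or DMSO as the solvent control, each for 6 h, which makes 16 groups of 2 libraries. All cells were grown in DMEM with serum. The labels do not name the gene that carries G579S, the route by which it was made or the number of clones.

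NF-kB is a family of dimeric transcription factors that are held in the cytoplasm by IkB proteins. Signals such as TNF or interleukin-1 lead to the destruction of IkB, after which the dimers enter the nucleus and switch on target genes, among them inhibitors that end the signal and cytokines that carry it to other cells. Several of these transcripts are short-lived and carry AU-rich elements, so that their level follows production closely, and cancer cell lines of different origin are known to differ widely in how much of the cytokines they make.

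The libraries held between 16091376 and 29742687 estimated reads, of which 85.62% to 89.37% fell on transcripts with a gene symbol. Levels are given as CPM (counts scaled to library size, here adjusted between libraries by the TMM method) and as TPM (also scaled to transcript length) where genes are compared with each other. The TMM factors of wild-type cells ran from 0.701 to 0.832 with OTS964 and from 1.091 to 1.157 with DMSO, and those of G579S cells from 0.96 to 1.13 with OTS964 and from 1.071 to 1.166 with DMSO. Scaling wild-type cells by library totals instead moved the median log2 fold change of all genes across lines to -0.65, against -0.06 with TMM, so changes below are relative to the bulk of genes. The 4 libraries labelled DLD1 wild-type went against their label. DLD1 G579S libraries had 75.0 to 94.0 TPM of the intestinal factor CDX2 and 195 to 218 TPM of E-cadherin (CDH1), whereas the libraries labelled DLD1 wild-type had at most 5.6 TPM of CDX2 and 7.69 TPM of CDH1. The neural crest factor SOX10 stood in those wild-type libraries at 78.9 and 136 TPM with OTS964 and at 441 and 411 TPM with DMSO. With DMSO their 8 colorectal markers summed to 24.9 and 40.6 TPM. The same sum was 1120 and 1090 TPM in DLD1 G579S and 0.157 and 0.26 TPM in A375 wild-type libraries. Melanocyte markers summed to 1090 and 1040, 12.0 and 12.8, and 815 and 830 TPM in these 3 groups. CDX1, VIL1 and LGALS4 reached at most 0.536 TPM in any library, and MLANA, TYR and DCT at most 0.378 TPM. Between the libraries labelled DLD1 wild-type and A375 wild-type under DMSO, 5.18% of tested genes differed, against 47.9% to 49.4% for the other 5 pairs of lines. These libraries are called by their label below, and genotype and cell identity cannot be told apart in that line. Agreement over the 4 labelled wild-type lines may thus count the same cell background more than once. The 2 libraries of a group differed most, relative to counting error, in Cal51 G579S DMSO, MDA-MB-231 wild-type OTS964 and DLD1-labelled wild-type OTS964, with a chi-square per degree of freedom of 86.97, 85.68 and 47.83. Nothing in the labels says that replicate libraries were made from separate cultures, so the p-values reflect the spread among these samples alone, and that spread may be technical. In bulk RNA, fewer cells of a kind and less RNA per cell cannot be told apart.

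Promoter sequences of 7 of the 10 genes were at hand in RefSeq (GRCh38.p14), as windows from 250 bases before to 50 bases after the start of transcription. NFKBIE, RELB and CCL2 had none there. The windows of 4 genes held the letters GGAATTTCC on either strand, one form of the kB element that NF-kB dimers bind, and these are shown with that stretch in capitals because 3 of the genes rose with OTS964 in wild-type cells and NFKB1 fell.
NFKBIA, chr14:35404700-35404999, minus strand: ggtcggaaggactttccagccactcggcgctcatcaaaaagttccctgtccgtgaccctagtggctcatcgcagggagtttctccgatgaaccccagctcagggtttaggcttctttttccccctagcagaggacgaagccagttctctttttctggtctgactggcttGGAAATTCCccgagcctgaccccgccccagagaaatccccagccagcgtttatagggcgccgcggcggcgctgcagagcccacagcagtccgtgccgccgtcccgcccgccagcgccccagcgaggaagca
CXCL8, chr4:73740319-73740618, plus strand: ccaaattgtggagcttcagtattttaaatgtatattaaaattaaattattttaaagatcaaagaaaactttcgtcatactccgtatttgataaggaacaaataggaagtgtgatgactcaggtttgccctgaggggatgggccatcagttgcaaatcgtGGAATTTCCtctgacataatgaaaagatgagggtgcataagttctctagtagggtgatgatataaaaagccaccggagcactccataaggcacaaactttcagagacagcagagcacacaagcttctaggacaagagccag
CXCL1, chr4:73869143-73869442, plus strand: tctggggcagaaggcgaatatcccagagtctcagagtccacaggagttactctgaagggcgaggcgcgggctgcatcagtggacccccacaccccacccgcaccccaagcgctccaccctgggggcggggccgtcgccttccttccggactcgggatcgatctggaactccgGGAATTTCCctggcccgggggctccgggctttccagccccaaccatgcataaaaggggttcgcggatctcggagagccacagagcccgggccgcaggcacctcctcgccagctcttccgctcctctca
NFKB1, chr4:102501109-102501408, plus strand: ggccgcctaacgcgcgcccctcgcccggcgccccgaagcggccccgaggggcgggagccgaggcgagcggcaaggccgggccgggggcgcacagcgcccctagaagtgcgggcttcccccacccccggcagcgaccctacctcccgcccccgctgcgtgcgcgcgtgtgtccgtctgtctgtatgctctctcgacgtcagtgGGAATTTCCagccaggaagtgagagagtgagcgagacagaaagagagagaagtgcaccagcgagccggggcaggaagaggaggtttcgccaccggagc
The first capital lies 81 bases before the start in NFKBIA, 91 in CXCL8, 78 in CXCL1 and 48 in NFKB1. Of all 35116 promoter windows in the RefSeq table, 162 (0.461%) held this motif on either strand.

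IL6 and TNFAIP3, which also rose in wild-type cells, held only a looser pattern, GGG and CC with any 5 bases between them, and are shown with it in capitals on either strand.
IL6, chr7:22726950-22727249, plus strand: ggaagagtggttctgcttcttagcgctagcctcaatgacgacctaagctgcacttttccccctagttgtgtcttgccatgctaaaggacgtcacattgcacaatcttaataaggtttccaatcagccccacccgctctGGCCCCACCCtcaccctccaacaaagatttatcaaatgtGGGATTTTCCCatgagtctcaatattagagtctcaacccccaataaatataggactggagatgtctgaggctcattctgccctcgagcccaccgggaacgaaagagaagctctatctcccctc
TNFAIP3, chr6:137867009-137867308, plus strand: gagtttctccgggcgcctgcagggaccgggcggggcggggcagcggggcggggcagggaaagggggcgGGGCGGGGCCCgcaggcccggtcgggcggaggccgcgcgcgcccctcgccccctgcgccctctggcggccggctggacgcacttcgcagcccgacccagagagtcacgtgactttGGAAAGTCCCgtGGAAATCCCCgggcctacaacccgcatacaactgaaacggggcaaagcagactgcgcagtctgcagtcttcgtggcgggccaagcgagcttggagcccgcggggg
The looser pattern stood in 58.7% of all windows, and where it overlaps itself the capitals run longer. Matches to GGAATTTCC overlap it in NFKBIA, NFKB1 and CXCL1. Each of the 7 genes held the looser pattern, whichever way it moved. NFKB2, which did not pass across lines, had 3 windows with 1, 6 and 7 matches to it, not shown. A second window of NFKB1, which fell, had 2 such matches and none to GGAATTTCC. CXCL8 was the only one of the 7 genes with TGANTCA, an AP-1 element, which stood in 7.71% of all windows. NFKBIA and CXCL8 had TATAAA, found in 11.5% of windows. A match describes letters and is not evidence of a bound site.

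In wild-type cells across the 4 lines, 6 of the 10 genes rose with OTS964 and 3 fell. TNFAIP3, CXCL8, IL6, NFKBIA, CXCL1 and CCL2 were higher, while NFKB1, NFKBIE and RELB were lower and NFKB2 did not pass the test. CCL2 passed the filter only through its wild-type OTS964 libraries, so its call carries little weight. Of the 13677 genes tested, 29.9% rose and 32% fell (61.9% either way), so a called change was the common outcome. The median log2 fold change was 1.5 over the 10 genes and -0.06 over all tested genes. All 9 calls held on leaving out any of the 16 libraries in turn, and also when all 4 DLD1-labelled ones were left out. Without those 4 libraries the log2 fold changes across lines were 2.19 for TNFAIP3, 2.23 for CXCL8, 2.56 for IL6, 1.63 for NFKBIA, 1.46 for CXCL1, 2.01 for CCL2, -1.37 for NFKBIE, -2.15 for NFKB1 and -0.61 for RELB.

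**Figure D1:**
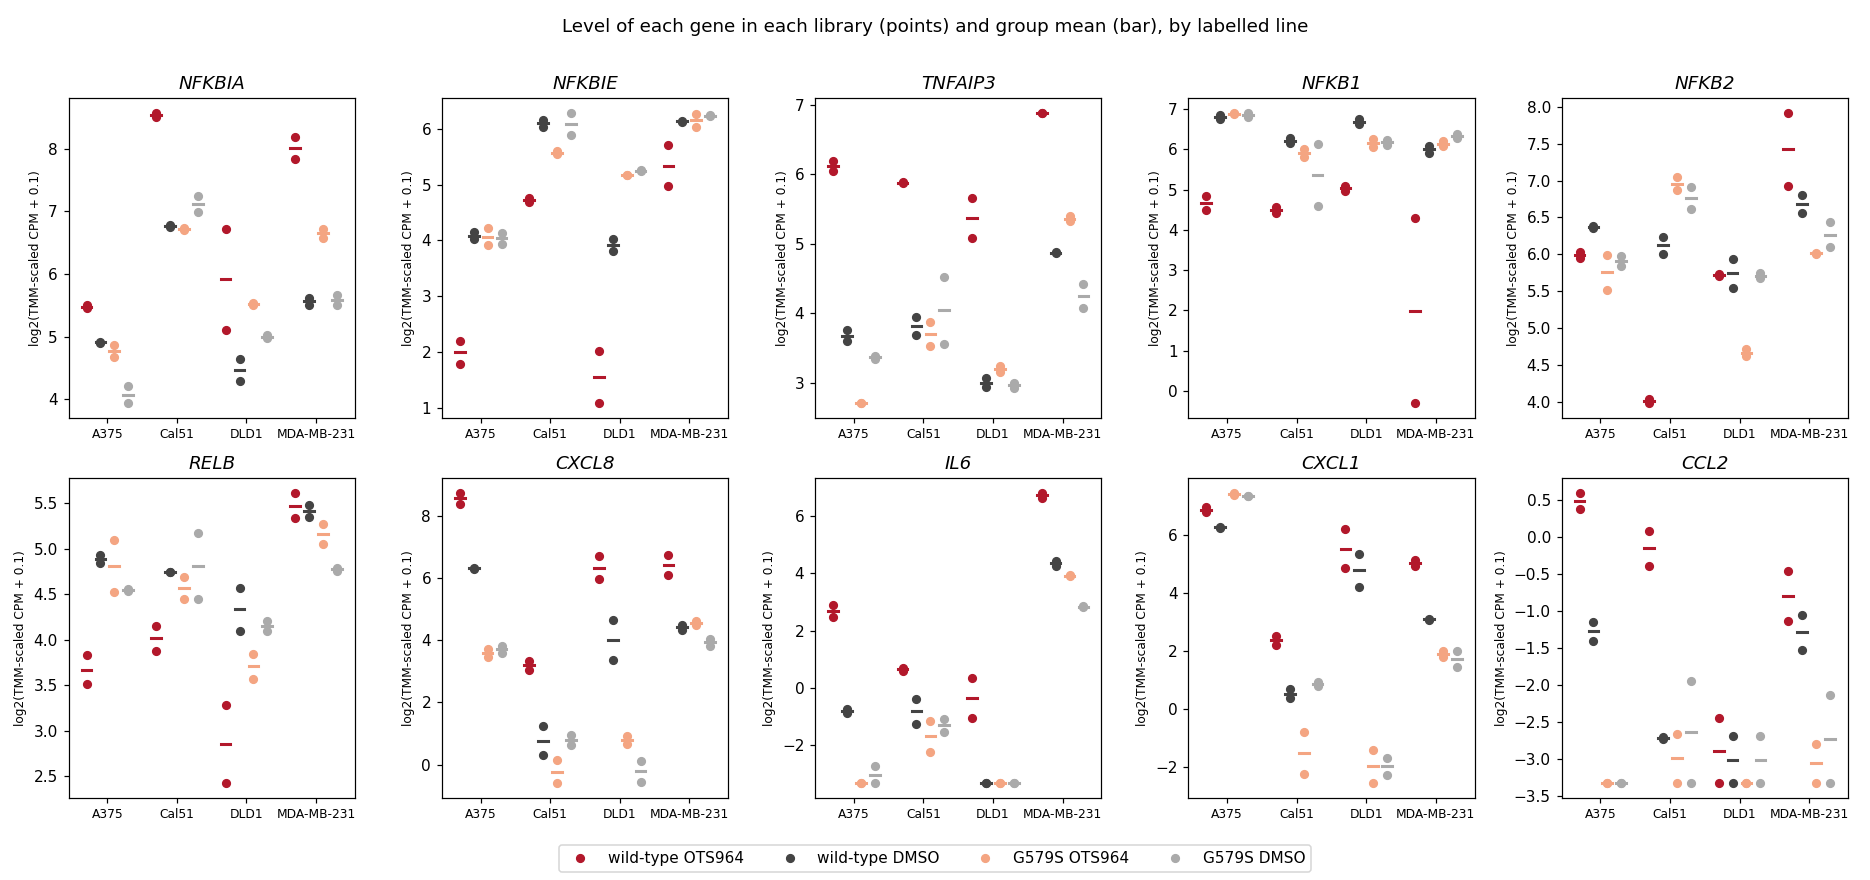
Level of each of the 10 genes in each library, as log2 of TMM-scaled CPM plus 0.1 (y axis), by labelled line (x axis) and by genotype and treatment (colour). Points are libraries and bars are group means. In wild-type cells the OTS964 points of NFKBIA, TNFAIP3, CXCL8 and IL6 lie above the DMSO points in 4 of 4 labelled lines. Those of NFKBIE and NFKB1 lie below them in 4 of 4 labelled lines, of which DLD1 and A375 may share a cell background. Of 40 pairs of gene and line, OTS964 was above in 22, below in 13 and overlapping in 5 in wild-type cells. In G579S cells it was above in 10, below in 10 and overlapping in 20. The share of all genes with groups apart, in a single line or in 4 of 4 lines, was not computed. With 2 libraries per group these counts are therefore a description and no result about the 10 genes. In TPM, NFKBIA was lower with OTS964 in A375 and overlapped in the DLD1-labelled line.

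TNFAIP3 encodes A20, an enzyme that edits ubiquitin chains on signalling proteins and so ends NF-kB signalling. Its level in A375 wild-type cells was 65.8 and 73.3 CPM with OTS964 and 13.5 and 12.0 CPM with DMSO. MDA-MB-231 wild-type cells had 118 and 118 CPM with OTS964 and 29.1 and 29.4 CPM with DMSO. In Cal51 wild-type cells there were 59.2 and 58.3 CPM with OTS964 and 12.8 and 15.3 CPM with DMSO. In the libraries labelled DLD1 wild-type the values were 50.6 and 33.8 CPM with OTS964 and 7.55 and 8.31 CPM with DMSO. Every OTS964 library of a line stood above both of its DMSO libraries, and the 4 labelled lines gave close values of the change. The log2 fold change across lines was 2.28 ± 0.13 (SE, n = 8 per treatment; edgeR quasi-likelihood test, Benjamini-Hochberg adjusted p = 4.6e-09), and it lay between 2.02 in MDA-MB-231 and 2.45 in A375 within lines. With library totals in place of TMM it was 1.68.

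NFKBIA encodes IkBα, the inhibitor that is itself made in response to NF-kB and returns the dimers to the cytoplasm. Cal51 wild-type cells had 365 and 381 CPM with OTS964 and 107 and 110 CPM with DMSO. MDA-MB-231 wild-type cells had 292 and 229 CPM with OTS964 and 49.1 and 45.2 CPM with DMSO. In A375 wild-type cells the level was 43.7 and 45.2 CPM with OTS964 and 29.8 and 30.0 CPM with DMSO. The groups did not overlap in these 3 lines on this scale, but the step was small in A375. There NFKBIA had 621 and 545 reads with OTS964 and 592 and 540 reads with DMSO. Its TPM was lower with OTS964, at 32.4 and 33.3, than with DMSO, at 34.7 and 35.3. The libraries labelled DLD1 wild-type had 105 and 34.4 CPM with OTS964 and 19.4 and 25.0 CPM with DMSO, so that one OTS964 library was far above the other. The log2 fold change across lines was 1.68 ± 0.24 (SE, adjusted p = 2.3e-05), and 1.07 with library totals. Within lines NFKBIA rose in MDA-MB-231 (2.46), Cal51 (1.78) and the DLD1-labelled cells (1.65), the last of which gave 0.63 without OTS964 replicate 1 and 2.25 without replicate 2. In A375 the log2 fold change of 0.57 had an adjusted p of 0.12 with all libraries and 0.0007 once the DLD1-labelled wild-type libraries, which share the estimate of spread, were removed. Over all alternatives, by edgeR or DESeq2, the A375 value ran from 0.13 to 0.69, with an adjusted p of up to 0.76.

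NFKBIE encodes IkBε, a further inhibitor of the same family, and it moved the other way. MDA-MB-231 wild-type cells had 52.0 and 31.2 CPM with OTS964 and 70.8 and 69.6 CPM with DMSO. Levels in Cal51 wild-type cells were 25.8 and 26.9 CPM with OTS964 and 65.4 and 71.4 CPM with DMSO. A375 wild-type cells had 4.5 and 3.32 CPM with OTS964 and 16.1 and 17.6 CPM with DMSO. The OTS964 libraries were the lower ones in these 3 lines without overlap, and likewise in the DLD1-labelled line, with 2.01 and 3.94 CPM under OTS964 and 13.9 and 16.1 CPM under DMSO. Across lines NFKBIE fell, with a log2 fold change of -1.56 ± 0.20 (SE, adjusted p = 7.3e-06). Within lines it ran from -2.31 in the DLD1-labelled cells to -0.75 in MDA-MB-231, where it was -1.17 without OTS964 replicate 1 and -0.43 (adjusted p = 0.12) without replicate 2.

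NFKB1 encodes the p105 precursor that is cut to the p50 subunit. In A375 wild-type cells it had 28.7 and 22.5 CPM with OTS964 and 107 and 116 CPM with DMSO. In Cal51 wild-type cells it had 21.4 and 23.6 CPM with OTS964 and 77.1 and 70.9 CPM with DMSO. The libraries labelled DLD1 wild-type had 34.2 and 31.1 CPM with OTS964 and 107 and 98.3 CPM with DMSO. In each of these lines the OTS964 libraries were well under the DMSO ones and the replicates were near each other. MDA-MB-231 wild-type cells had 0.711 and 19.5 CPM with OTS964, from 14 and 311 reads, and 67.3 and 60.5 CPM with DMSO. One OTS964 library there was far below its partner, in the group with the second highest spread between libraries. The log2 fold change across lines was -1.98 ± 0.40 (SE, adjusted p = 0.00062), and -1.74 without that library. In MDA-MB-231 alone it was -2.68 with both libraries, -1.71 without replicate 1 and -6.48 without replicate 2. The calls within A375, Cal51 and the DLD1-labelled cells (-2.12, -1.72 and -1.65) were lost on leaving out 1, 4 and 4 of the 32 libraries.

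NFKB2 encodes p100, the precursor of the p52 subunit that works with RELB in the non-canonical branch of the pathway. Cal51 wild-type cells had 16.3 and 15.7 CPM with OTS964 and 64.3 and 75.2 CPM with DMSO. MDA-MB-231 wild-type cells had 242 and 122 CPM with OTS964 and 94.5 and 112 CPM with DMSO. The OTS964 libraries were thus the low ones in Cal51 and the high ones in MDA-MB-231. In A375 wild-type cells NFKB2 stood at 65.4 and 62.0 CPM with OTS964 and 81.6 and 83.4 CPM with DMSO, and in DLD1-labelled wild-type cells at 52.0 and 52.9 CPM with OTS964 and 46.6 and 61.4 CPM with DMSO. Across lines the log2 fold change was -0.33 ± 0.31 (SE, adjusted p = 0.37), and with library totals it was -0.93 (adjusted p = 0.027). NFKB2 fell in Cal51, with a log2 fold change of -2.13 and an adjusted p of 3.4e-07. It rose in MDA-MB-231, by 0.82 on the log2 scale with an adjusted p of 0.0047, a call that was lost with library totals (0.3, adjusted p = 0.26) and without OTS964 replicate 1 (0.24, adjusted p = 0.35).

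RELB, the partner of p52, had 14.1 and 11.3 CPM with OTS964 and 28.6 and 30.4 CPM with DMSO in A375 wild-type cells. In Cal51 wild-type cells RELB had 14.6 and 17.7 CPM with OTS964 and 26.7 and 26.7 CPM with DMSO. In the libraries labelled DLD1 wild-type it had 5.26 and 9.65 CPM with OTS964 and 17.0 and 23.7 CPM with DMSO. OTS964 libraries were lower in those 3 lines and overlapped with DMSO libraries in MDA-MB-231, where RELB had 48.9 and 40.2 CPM with OTS964 and 40.6 and 44.7 CPM with DMSO. Across lines the log2 fold change of RELB was -0.78 ± 0.18 (SE, adjusted p = 0.0017).

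CXCL8, which encodes interleukin-8, a chemokine that draws neutrophils, stood at 331 and 424 CPM with OTS964 in A375 wild-type cells and at 78.4 and 79.8 CPM with DMSO. MDA-MB-231 wild-type cells had 67.7 and 107 CPM with OTS964 and 20.1 and 22.1 CPM with DMSO. The libraries labelled DLD1 wild-type had 61.8 and 104 CPM with OTS964 and 10.1 and 25.0 CPM with DMSO. Cal51 was the line with the least CXCL8, but there too the OTS964 libraries (8.2 and 9.9 CPM) were above the DMSO libraries (1.14 and 2.25 CPM). The log2 fold change across lines was 2.28 ± 0.20 (SE, adjusted p = 2.5e-07). Within lines it was 2.42 in Cal51, 2.26 in A375, 2.24 in the DLD1-labelled cells and 2.05 in MDA-MB-231, although the DMSO levels of the lines were far apart. The replicates of some groups were far apart too: leaving out DMSO replicate 1 or 2 gave 1.73 or 3.03 in the DLD1-labelled cells and 2.01 or 2.98 in Cal51.

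IL6, a cytokine that acts through STAT3 on many cell types, had 112 and 99.6 CPM with OTS964 in MDA-MB-231 wild-type cells and 21.7 and 19.0 CPM with DMSO. A375 wild-type cells had 5.48 and 7.38 CPM with OTS964 and 0.452 and 0.501 CPM with DMSO. Cal51 wild-type cells had 1.41 and 1.54 CPM with OTS964 and 0.672 and 0.321 CPM with DMSO. MDA-MB-231 had the highest IL6 level of the 4 lines, and the OTS964 libraries were above the DMSO ones in each line without overlap. In the libraries labelled DLD1 wild-type IL6 had 4 and 14 reads with OTS964 and 0 reads with DMSO, which, with a floor of 3 reads per library, puts the level at least 5.09-fold higher with OTS964. Taken from OTS964 replicate 1 alone the bound was 2.5-fold, and from replicate 2 alone 7.68-fold. For IL6 the log2 fold change across lines was 2.80 ± 0.40 (SE, adjusted p = 2.7e-05). Within lines IL6 rose by 3.74 in A375, 2.37 in MDA-MB-231 and 1.55 in Cal51 on the log2 scale, and the call in Cal51 rested on 15 and 16 reads with OTS964 and 13 and 6 reads with DMSO and was lost on leaving out 2 of the 32 libraries and with library totals (0.85, adjusted p = 0.18).

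CXCL1, a neutrophil chemokine close in sequence to CXCL2 and CXCL3, had 34.5 and 30.4 CPM with OTS964 in MDA-MB-231 wild-type cells and 8.37 and 8.35 CPM with DMSO. In Cal51 wild-type cells it had 4.52 and 5.67 CPM with OTS964 and 1.19 and 1.5 CPM with DMSO. A375 wild-type cells had 110 and 122 CPM with OTS964 and 75.1 and 76.5 CPM with DMSO. In CPM the libraries did not overlap in these lines but did in the DLD1-labelled line, with 28.5 and 73.6 CPM under OTS964 and 18.3 and 40.3 CPM under DMSO. In TPM they overlapped in A375 too, at 118 and 130 with OTS964 and 126 and 129 with DMSO. CXCL1 rose across lines with a log2 fold change of 1.32 ± 0.24 (SE, adjusted p = 0.00022). It passed the test in MDA-MB-231 (1.96) and Cal51 (1.92) and not in A375 (0.62, adjusted p = 0.16) or the DLD1-labelled cells (0.81, adjusted p = 0.063). Reads of CXCL1, CXCL2 and CXCL3 may be shared among them, and CXCL2 and CXCL3 gave log2 fold changes of 0.76 and 0.57 with adjusted p of 0.055 and 0.12.

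CCL2, a chemokine that draws monocytes, was close to the limit of counting in all libraries. It had 17 and 17 reads with OTS964 and 7 and 5 reads with DMSO in A375 wild-type cells, and 7 and 10 reads with OTS964 and 5 and 8 reads with DMSO in MDA-MB-231 wild-type cells. In Cal51 wild-type cells there were 7 and 10 reads with OTS964 and 1 and 1 reads with DMSO, a ratio of 15.4 with a 95% exact interval of 3.65 to 137 that covers counting error only. The libraries labelled DLD1 wild-type had 0 and 1 reads with either treatment. The log2 fold change across lines was 1.86 ± 0.58 (SE, adjusted p = 0.012), and the call within Cal51 (adjusted p = 0.026) was lost on leaving out 3 of the 32 libraries. CCL2 passed the filter, with its minimum count of 10, only through wild-type OTS964 libraries. These reached 1.41 CPM, while wild-type DMSO libraries reached 0.384 CPM and G579S libraries 0.161 CPM. A filter met only where a gene is high favours a rise, so these calls carry little weight.

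By line, 3 genes rose and 3 fell in A375 wild-type cells, where 20.8% of the 14318 genes tested rose and 25% fell (45.8% either way). In Cal51, 6 rose and 4 fell, beside 25% and 27.8% of all genes (52.8% either way). In the cells labelled DLD1 wild-type, 4 rose and 3 fell, beside 22.2% and 27.7% (50% either way). In MDA-MB-231, 6 rose and 2 fell, beside 24.1% and 22.4% (46.5% either way). TNFAIP3, CXCL8 and IL6 rose in each of the 4 lines, and NFKBIE and NFKB1 fell in each of them, although the call of IL6 in Cal51 was lost with library totals and that of NFKB1 in the DLD1-labelled cells with RLE size factors and DESeq2 (adjusted p = 0.055 and 0.066). Of these 31 calls, 23 held whichever of the 32 libraries was left out. Under DMSO only 5.18% of genes differed between the DLD1-labelled and A375 wild-type libraries, so the 4 labelled lines may not be 4 separate cell backgrounds.

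**Figure D2:**
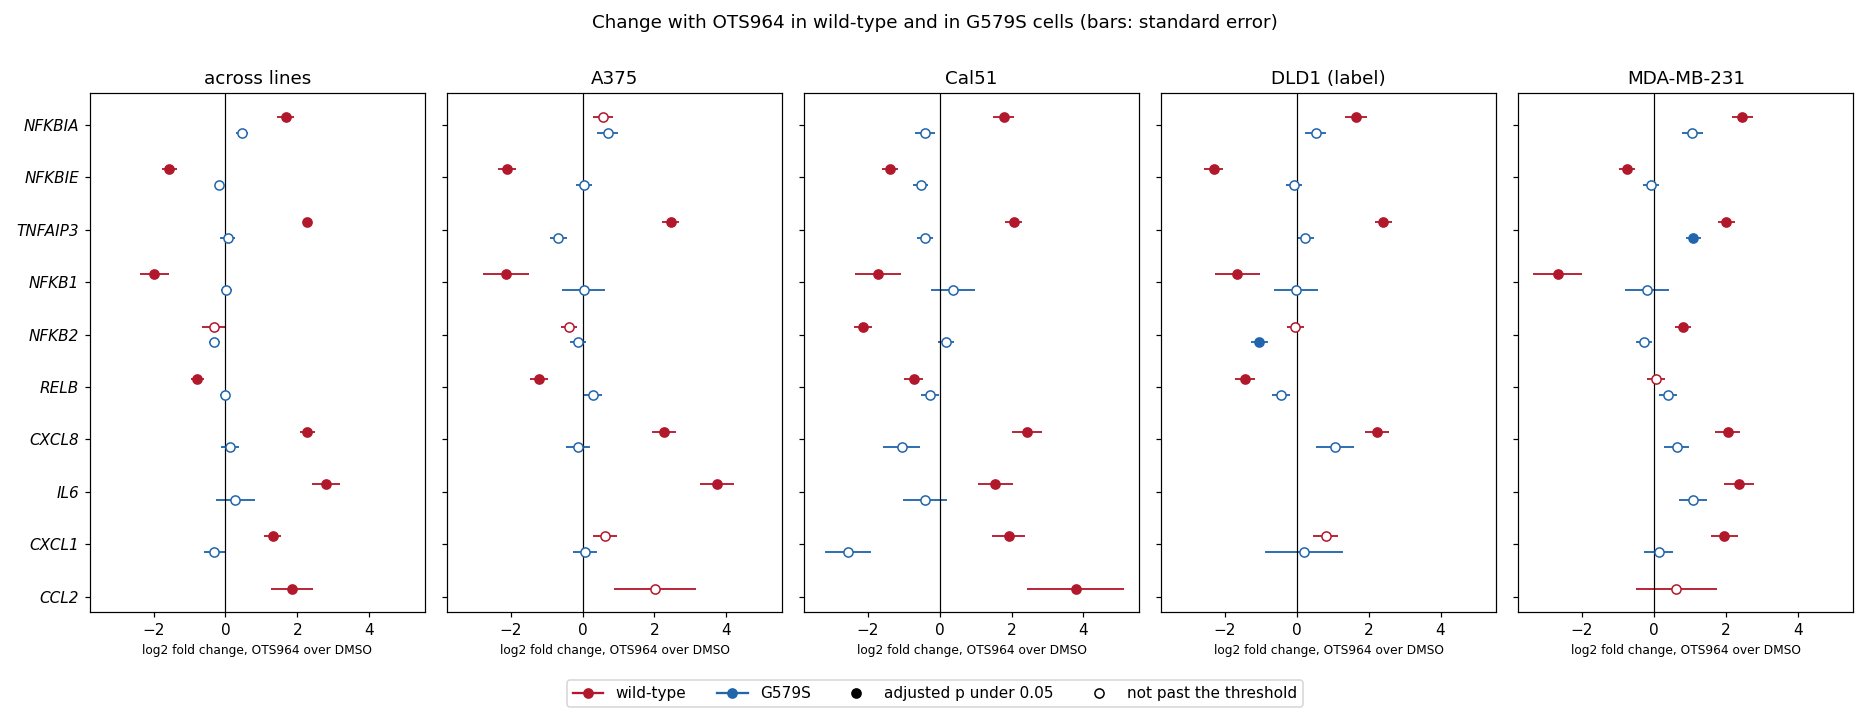
Log2 fold change of OTS964 over DMSO (x axis) for each gene (y axis) in wild-type cells (red) and G579S cells (blue), across lines and in each labelled line; bars are standard errors and filled points passed the test. Genes with no more than 3 reads in any library of a panel, or at 0 in all libraries of one treatment, have no point. In the panel across lines 9 of 10 wild-type points and 0 of 9 G579S points are filled.

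In G579S cells across lines, 0 of the 9 genes tested passed the edgeR test, beside 2.86% of 13984 genes. CCL2 was too low to be tested, with at most 3 reads in any G579S library. At an unadjusted p under 0.05 there were 2 genes, NFKBIA with a log2 fold change of 0.46 ± 0.16 (SE, adjusted p = 0.11) and NFKB2 with -0.31 (adjusted p = 0.22), and DESeq2 called 1, NFKBIA (0.47, adjusted p = 0.039). The values of the others lay between -0.31 for CXCL1 and 0.28 for IL6. CXCL8 had 10.8 and 12.9 CPM with OTS964 and 13.9 and 12.0 CPM with DMSO in A375 G579S cells, and the 2 treatments overlapped. TNFAIP3 had 11.5 and 14.6 CPM with OTS964 and 23.0 and 11.7 CPM with DMSO in Cal51 G579S cells. NFKB1 in the same line had 63.9 and 56.1 CPM with OTS964 and 69.8 and 23.9 CPM with DMSO, where one DMSO library, of the group with the highest spread, was low.

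Within lines 2 of 40 G579S results passed. TNFAIP3 rose in MDA-MB-231 G579S cells, to 42.0 and 40.1 CPM with OTS964, against 16.8 and 21.4 CPM with DMSO (log2 fold change 1.10 ± 0.22, SE; adjusted p = 0.037; 0.307% of genes called). That call was lost on leaving out any of 24 of the 32 libraries, with an adjusted p of up to 0.47. In the same cells NFKBIA had 95.5 and 105 CPM with OTS964 and 45.2 and 50.6 CPM with DMSO, and IL6 had 14.8 and 15.2 CPM with OTS964 and 6.98 and 7.1 CPM with DMSO. Neither pair of groups overlapped. The adjusted p were 0.13 and 0.29 in edgeR and 0.018 and 0.00052 in DESeq2, which called 3 genes in these cells, TNFAIP3 included. Once the DLD1-labelled wild-type libraries were removed, edgeR gave 0.00012 for NFKBIA and 0.15 for IL6. NFKB2 fell in DLD1 G579S cells, which had 26.2 and 24.5 CPM with OTS964 and 53.6 and 51.0 CPM with DMSO (-1.04 ± 0.23, SE; adjusted p = 0.0024; 23.5% of genes called). In A375 and Cal51 G579S cells 0 of the 10 genes passed (0.657% and 0.391% of genes called), with 2 in each at an unadjusted p under 0.05 and 0 and 1 by DESeq2. CXCL1 in Cal51 G579S cells was at 0.112 and 0.472 CPM with OTS964 and 1.64 and 1.82 CPM with DMSO, with an adjusted p of 0.089.

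The difference between the responses of wild-type and G579S cells was tested as an interaction. Across lines 9 of the 10 genes passed, 6 with a higher response in wild-type cells (24.3% of 14318 genes) and 3 with a lower one (25.8%), beside 50.1% of genes either way. The difference in log2 fold change was 2.16 ± 0.25 (SE, adjusted p = 1e-07) for TNFAIP3, 2.07 for CXCL8, 2.33 for IL6, 1.62 for CXCL1 and 1.16 for NFKBIA. It was -2.08 for NFKB1, -1.42 for NFKBIE and -0.82 for RELB. For NFKB2 it was -0.08 with an adjusted p of 0.89. NFKBIA did not pass within A375, where its difference ran from -0.48 to 0.03 over the alternatives. A375 G579S cells had 29.1 and 25.3 CPM of NFKBIA with OTS964 and 15.2 and 18.4 CPM with DMSO. In DLD1 G579S cells it had 46.4 and 45.4 CPM with OTS964 and 31.4 and 32.3 CPM with DMSO. Cal51 G579S cells went the other way, with 104 and 106 CPM under OTS964 and 127 and 152 CPM under DMSO. As many genes, 9, passed once the 4 libraries labelled DLD1 wild-type were removed. CCL2 gave 3.11 ± 1.14 (SE, adjusted p = 0.026), a call lost on leaving out any of 4 libraries and with library totals. It entered this test, too, only through wild-type OTS964 libraries. Within lines 21 of 40 differences passed, 14 higher and 7 lower in wild-type cells. TNFAIP3 was the only gene among them in all 4 lines, with 3.11 in A375, 2.47 in Cal51, 2.17 in the DLD1-labelled line and 0.91 in MDA-MB-231. Its call in MDA-MB-231 (adjusted p = 0.036) was lost on leaving out 8 of the 32 libraries, with an adjusted p of up to 0.16, and with library totals (0.53, adjusted p = 0.28). The share of all genes called was 33.9% in A375, 45.8% in Cal51, 36.7% in the DLD1-labelled line and 26.5% in MDA-MB-231.

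The response of each wild-type line was set against the mean of the other lines, which tests whether a gene responded unequally. Of 40 such differences 8 passed: 1 in A375 (4.67% of all genes called), 2 in Cal51 (13.9%), 0 in the DLD1-labelled line (4.84%; 3 at an unadjusted p under 0.05, and 0 by DESeq2) and 5 in MDA-MB-231 (24.4%). NFKB2 gave a difference in log2 fold change of 1.67 (adjusted p = 8.4e-05) in MDA-MB-231 and -2.26 (adjusted p = 1.2e-05) in Cal51. The log2 fold changes of RELB and NFKBIE in MDA-MB-231 lay above the mean of the other lines by 1.19 (adjusted p = 0.0051) and 1.17 (adjusted p = 0.002). NFKBIA rose more in MDA-MB-231 (1.13, adjusted p = 0.016; 0.94 with an adjusted p of 0.093 without OTS964 replicate 1) and less in A375 (-1.39, adjusted p = 0.02). IL6 gave -2.75 in Cal51 and -1.66 in MDA-MB-231, but these rest on the DLD1-labelled cells, listed at 0 with DMSO, and were -1.5 and -0.27 without them.

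Under DMSO the order of the genes by level per length was led by different genes in different lines. In MDA-MB-231 wild-type cells NFKBIA had 66.1 and 60.9 TPM, NFKB2 55.2 and 65.6 TPM, NFKBIE 53.2 and 52.4 TPM, IL6 41.2 and 36.4 TPM and CCL2 0.921 and 1.42 TPM. The ranges of NFKBIA and NFKB2 overlapped, as did those of IL6 and RELB (35.1 and 38.9 TPM), and IL6 stood below NFKBIE and above NFKB1 (30.6 and 27.6 TPM). In A375 wild-type cells CXCL1 led with 126 and 129 TPM, followed by CXCL8 with 82.6 and 84.8 TPM, while IL6 had 0.746 and 0.813 TPM. Cal51 wild-type cells had 145 and 147 TPM of NFKBIA and at most 2.88 TPM of any of the 4 cytokines. Of the 3 inhibitors NFKBIA had the highest TPM and TNFAIP3 the lowest, between 4.16 and 11.5 TPM, in each of these 3 lines.

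Compared between wild-type lines under DMSO, 32 of 60 differences passed, 21 higher and 11 lower in the first-named line. IL6 was higher in MDA-MB-231 than in A375 by 5.4 and than in Cal51 by 5.34 on the log2 scale, and at least 133-fold higher than in the DLD1-labelled cells, in which it was at 0. The difference of Cal51 from A375 was -5.55 for CXCL8 and -5.81 for CXCL1 on the log2 scale. NFKBIA was higher in Cal51 than in A375 by 1.86. TNFAIP3 was higher in MDA-MB-231 than in A375 by 1.2 and than in Cal51 by 1.05. NFKB1 passed in 0 of the 6 pairs by edgeR and by DESeq2, and in 0 at an unadjusted p under 0.05. These 0 calls do not show equal levels. NFKB1 had 107 and 116 CPM in A375 and 67.3 and 60.5 CPM in MDA-MB-231. Over the alternatives the log2 difference of MDA-MB-231 ran from -1.11 to -0.73 against A375. Against the DLD1-labelled cells it ran from -0.97 to -0.61. For these pairs the outcome was not the same under every alternative. The counts were 5 of 10 genes for MDA-MB-231 against A375 (47.9% of all genes), 7 of 10 for MDA-MB-231 against Cal51 (49.3%), 7 of 10 for MDA-MB-231 against the DLD1-labelled cells (49.1%), 4 of 10 for Cal51 against A375 (49.4%), 3 of 10 for the DLD1-labelled cells against A375 (5.18%) and 6 of 10 for Cal51 against the DLD1-labelled cells (49%).

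G579S and wild-type cells under DMSO differed in 7 of 40 results, 1 higher and 6 lower in G579S. CXCL8 stood at 13.9 and 12.0 CPM in A375 G579S cells and at 78.4 and 79.8 CPM in A375 wild-type cells (log2 fold change -2.61 ± 0.35, SE; adjusted p = 4.1e-05), and IL6 had 1 read over both A375 G579S libraries and 18 over both A375 wild-type ones, a ratio of 0.0541 with a 95% exact interval of 0.0013 to 0.343. These were the 2 calls by edgeR in A375 (9.78% of genes). CXCL1 in A375 had 162 and 162 CPM in G579S cells and 75.1 and 76.5 CPM in wild-type cells (1.09, adjusted p = 0.051). DESeq2 called 4 genes there, adding CXCL1 (1.12, adjusted p = 0.013) and NFKBIA (-0.81, adjusted p = 0.046). With the DLD1-labelled wild-type libraries removed, edgeR gave CXCL1 an adjusted p of 0.00093. In MDA-MB-231 (7.3% of genes called) IL6 had 6.98 and 7.1 CPM in G579S cells and 21.7 and 19.0 CPM in wild-type cells (-1.53, adjusted p = 0.029), and CXCL1 had 2.65 and 3.92 CPM in G579S cells and 8.37 and 8.35 CPM in wild-type cells (-1.33, adjusted p = 0.043). The MDA-MB-231 calls were lost on leaving out 4 and 20 of the 32 libraries. Cal51 had 0 calls by edgeR (17% of genes; 1 gene at an unadjusted p under 0.05 and 1 by DESeq2). In the line labelled DLD1 (49.1% of genes called) NFKBIE was higher and CXCL1 and CXCL8 were lower in G579S, but there the cells differ in identity.

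Of the 5 genes with more than 1 matched transcript, IL6 alone passed a test of transcript usage, beside 391 of 6402 genes (6.11%). Its reads fell on a curated transcript of 1184 bases and a longer, predicted one of 1412 bases. In MDA-MB-231 wild-type cells the predicted transcript held 52.8% and 42.8% of IL6 TPM with OTS964 and 3.19% and 2.0% with DMSO. A375 wild-type cells gave 22.1% and 21.3% with OTS964 and 0% and 9.12% with DMSO, and Cal51 wild-type cells gave 22.6% and 40.9% with OTS964 and 0% and 0% with DMSO. Each OTS964 library of wild-type cells was above every DMSO library of wild-type cells that had IL6 reads, the ranges being 15.0% to 52.8% and 0% to 9.12%. In Cal51, in the DLD1-labelled cells and in A375 with DMSO these shares rest on few IL6 reads. The A375 wild-type DMSO libraries had 18 in all. MDA-MB-231 G579S cells had 20.6% and 25.0% with OTS964 and 0% and 3.43% with DMSO. The difference in usage in wild-type cells across lines had an adjusted p of 0.015 by edgeR's Simes test. It was lost without MDA-MB-231 wild-type OTS964 replicate 1, when 0 of the 5 genes tested passed. TNFAIP3 had an adjusted p of 0.067. Its shorter, predicted transcript of 4455 bases held 31.7% and 19.2% of its TPM in A375 wild-type cells with OTS964 and 14.1% in 1 Cal51 wild-type OTS964 library. It was at 0% in the other 5 wild-type OTS964 libraries and in all 8 wild-type DMSO libraries. Among G579S libraries it held 42.6% in 1 DLD1 OTS964 library and 0% in the other 7 OTS964 and all 8 DMSO libraries. NFKBIA, NFKBIE, CXCL8, CXCL1 and CCL2 had 1 matched transcript each.

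**Figure D3:**
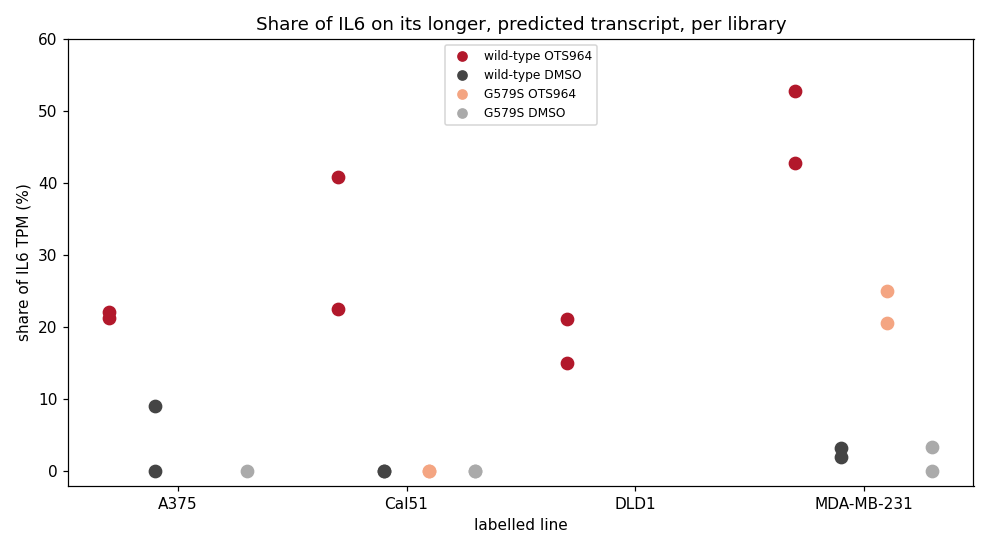
Share of IL6 TPM on the longer, predicted transcript in each library with IL6 reads (y axis, percent), by labelled line (x axis) and by genotype and treatment (colour). Wild-type OTS964 libraries lie between 15.0% and 52.8%, and wild-type DMSO libraries between 0% and 9.12%. Points of Cal51, of the DLD1-labelled wild-type cells and of A375 with DMSO rest on few reads.

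The 10 genes differ in length. CXCL1, CCL2, CXCL8, NFKBIA and IL6 span 1916, 1919, 3148, 3237 and 4799 bases in the RefSeq annotation, and all 5 rose with OTS964 in wild-type cells. The rise of CCL2 carries little weight, as that gene passed the filter only through wild-type OTS964 libraries. NFKBIE spans 7386, NFKB2 8420, TNFAIP3 16964, RELB 36729 and NFKB1 115944 bases, and of these only TNFAIP3 rose. Over all tested genes the median log2 fold change was 0.77 for genes under 5000 bases, of which 53.1% rose and 11.7% fell. It was 0.19 for genes of 5000 to 20000 bases, -0.2 for 20000 to 60000 bases and -0.42 for longer ones, of which 18.9% rose and 38.9% fell. The part of length in the changes of the 10 genes was not tested.

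**Figure D4:**
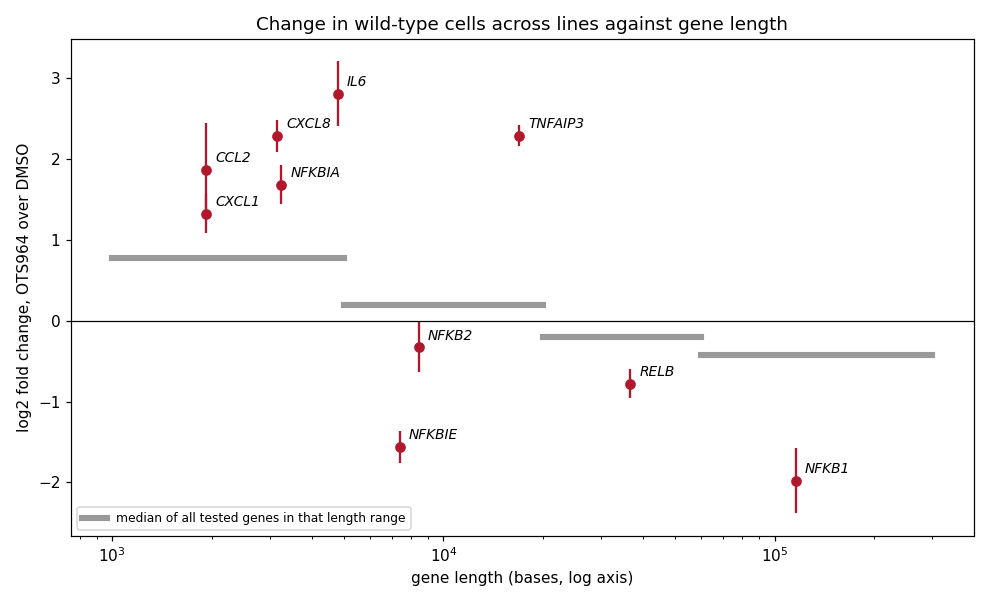
Log2 fold change of OTS964 over DMSO in wild-type cells across lines (y axis) against gene length in bases (x axis, logarithmic) for the 10 genes; bars are standard errors. Grey lines are the medians of all tested genes in 4 ranges of length, from 0.77 in the shortest to -0.42 in the longest. The 5 genes under 5000 bases and TNFAIP3 lie above the line of their range, and NFKBIE, NFKB2, RELB and NFKB1 lie below theirs. The point of CCL2 carries little weight, as that gene passed the filter only through wild-type OTS964 libraries.

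Other genes of the pathway were read from 7 lists, in wild-type cells across lines, where 29.9% of all genes rose and 32% fell. Of 5 tested subunits and atypical IkB proteins, 2 rose and 3 fell, with a median log2 fold change of -1.32. RELA, the p65 subunit, averaged 58.8 ± 47.1 CPM with OTS964 and 128 ± 41.9 CPM with DMSO (SD, n = 8 each; -1.32), and BCL3, an IkB protein of the nucleus, 4.01 ± 3.21 CPM with OTS964 and 21.9 ± 7.83 CPM with DMSO (-2.68). Of 24 upstream kinases and adaptors, 3 rose and 15 fell, with a median of -1.11. The kinase of the non-canonical branch, MAP3K14, gave -2.96 and the TNF receptor adaptor TRAF2 gave -2.92. Of 12 receptors tested, 1 rose and 4 fell, with TNFRSF1A, the TNF receptor, at -2.2 and IL1R1, the interleukin-1 receptor, at -2.19. Of 14 feedback regulators, 4 rose and 6 fell. Among them OTUD7B, a deubiquitinase, gave -2.74, N4BP1 gave -5.76, and COMMD1, which promotes RELA turnover, gave 1.0. All genes named in this paragraph passed the test and moved one way in the 4 labelled lines.

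Lists of pathway outputs were counted in the same way. Of 19 other cytokines and chemokines tested, 4 rose (21.1%) and 2 fell (10.5%), with a median log2 fold change of 0.57 and CXCL16 at 1.15. Of 15 other target genes, 6 rose and 3 fell: GADD45B, a stress-induced gene, averaged 179 ± 70.6 CPM with OTS964 and 29.7 ± 16.6 CPM with DMSO (SD, n = 8 each; 2.75), TAP1, a peptide transporter, gave 0.93, the transcription factor IRF1 gave -2.33, and CFLAR, an inhibitor of cell death, gave -0.99. Of 8 factors of AU-rich RNA decay, 4 rose and 3 fell. ZFP36L1 gave 1.24 and HNRNPD 0.89, while ZFP36, which binds AU-rich elements of cytokine transcripts and speeds their decay, gave -1.18. With library totals the counts that rose and fell were 0 and 3 for subunits, 0 and 19 for kinases and adaptors, 0 and 7 for receptors, 2 and 7 for feedback regulators, 2 and 4 for other cytokines, 4 and 5 for other targets and 2 and 3 for decay factors, beside 14.1% and 49.7% of all genes. In G579S cells across lines, 1 of the 97 genes tested in the 7 lists rose and 2 fell (3.09%), beside 2.86% of all genes.

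Levels of the 10 genes were compared over the 16 groups as a description, since the groups share lines and treatments. TNFAIP3 and IL6 had a Pearson r of 0.85, TNFAIP3 and NFKB1 -0.84, CXCL8 and CXCL1 0.81, and NFKBIE and RELB 0.72, all on log2 values over 16 groups. The genes most like each of them were PDIA5 (0.97) for NFKBIA, CCDC85C (0.99) for NFKBIE, PITRM1 (0.95) for TNFAIP3, HEATR6 (0.99) for NFKB1, NECAB3 (0.87) for NFKB2 and ORAI1 (0.9) for RELB. For the cytokines they were CCDC85B (0.97) for CXCL8, CYB5R4 (0.98) for IL6, HSD11B1L (0.95) for CXCL1 and PLXDC2 (0.85) for CCL2.

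Markers of other cells that make these cytokines were read in the same libraries. The summed level of leukocyte markers was 5.69 to 222 TPM in wild-type OTS964, 4.37 to 157 TPM in wild-type DMSO, 3.24 to 96.6 TPM in G579S OTS964 and 4.71 to 91.8 TPM in G579S DMSO libraries. Most of it was CD68, with up to 208 TPM, in MDA-MB-231. LYZ reached 21.5 TPM, in the cells labelled DLD1 wild-type, CD14 reached 14.4 TPM, in MDA-MB-231 wild-type cells, and PTPRC reached 8.79 TPM. CSF1R and FCER1G reached 2.68 and 2.67 TPM, ITGAM 0.872 TPM, TYROBP 0.328 TPM and CD3E 0.135 TPM. Fibroblast markers summed to 0.898 to 87.9 TPM in wild-type OTS964, 2.16 to 70.8 TPM in wild-type DMSO, 0.101 to 231 TPM in G579S OTS964 and 0.257 to 201 TPM in G579S DMSO libraries. Most of that was COL1A2 in Cal51, with up to 228 TPM, while DCN, LUM and PDGFRA reached 0.436, 2.27 and 0.521 TPM. Endothelial markers summed to at most 2.77 TPM. The part of these markers in the results was not tested.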

How the data were processed

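RNA-seq libraries (32) of 4 human cell lines were assigned to 16 groups by their titles. Per the file headers, the authors deposited 1 table per library with TPM, normalized by them to transcript length and library total, and estimated counts, which are not whole and not normalized, for 87398 transcripts. No source used here names the quantification tool. Of genome builds, the submitters' processing notes list GRCm38 and mm10, both of mouse, although the identifiers are human. TPM are relative to all listed transcripts. Identifiers matched a gene symbol for 42547 transcripts (48.7%), among them 36232 of 36585 curated coding ones (99.0%) and 6315 of 31064 predicted ones (20.3%). The rest stayed out of library sizes and tests.

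Estimated counts were summed per gene and rounded. Tests were run in R 4.3.3 with edgeR 4.0.16 (quasi-likelihood test, robust, TMM scaling, filterByExpr by group with a minimum count of 10), with Benjamini-Hochberg adjustment over all tested genes and a threshold of 0.05. Fits across lines used the 16 libraries of a genotype with the line as a block, or all 32 for the interaction. Contrasts within lines came from 1 model of 16 groups, in which all libraries share the estimate of spread. The standard error is the log2 fold change divided by the root of F. Usage was tested with diffSpliceDGE. Intervals and the floor of 3 counts cover counting error only. The fits were also run on simulated counts in which few genes changed. That setting is unlike these data, where most genes changed in wild-type cells, and no result here rests on it.

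The 10 genes, the lists and the tests were chosen with earlier results of these data known. From each pathway list the text names up to 2 genes per direction, those with the largest called change that had one sign in all 4 lines. The genes named as most alike are those with the highest Pearson r of log2 CPM. Alternatives were RLE size factors, library totals, no filter, TPM-derived counts, DESeq2 1.42.0, a replicate block, leaving out each library, and leaving out the libraries labelled DLD1 wild-type.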

Additional observations from a re-analysis of the deposited data

Results flagged for a closer look

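The responses of wild-type and G579S cells to OTS964 differed by the interaction test in edgeR for 9 of the 10 genes across lines, beside 50.1% of all genes. The difference in log2 fold change, wild-type minus G579S, was 3.11 for CCL2, 2.33 for IL6, 2.16 for TNFAIP3, 2.07 for CXCL8, 1.62 for CXCL1 and 1.16 for NFKBIA, and -2.08 for NFKB1, -1.42 for NFKBIE and -0.82 for RELB. CCL2 passed the filter only through wild-type OTS964 libraries and was too low to be tested in G579S cells alone. Its call was lost on leaving out any of 4 libraries and with library totals.

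Within A375 the same difference passed for TNFAIP3 (3.11), CXCL8 (2.39), NFKBIE (-2.14) and RELB (-1.5), and not for NFKBIA (-0.48 to 0.03 over the alternatives). Within Cal51 it passed for CXCL1 (4.47), CXCL8 (3.48), TNFAIP3 (2.47), NFKBIA (2.19), NFKBIE (-0.84) and NFKB2 (-2.31). In the line labelled DLD1, where genotype and cell identity cannot be told apart, it passed for TNFAIP3 (2.17), NFKBIA (1.12), NFKB2 (1.0), RELB (-1.0) and NFKBIE (-2.23). Within MDA-MB-231 it passed for CXCL1 (1.83), CXCL8 (1.42), NFKBIA (1.4), NFKB2 (1.08), TNFAIP3 (0.91) and NFKB1 (-2.49). Of these 21 differences, 11 held whichever of the 32 libraries was left out. Among all genes, 33.9% passed in A375, 45.8% in Cal51, 36.7% in the DLD1-labelled line and 26.5% in MDA-MB-231. NFKB1 in MDA-MB-231 was lost on leaving out any of 25 libraries, with a value of -1.52 without wild-type OTS964 replicate 1 and -6.28 without replicate 2. TNFAIP3 in MDA-MB-231 was lost on leaving out 8 libraries. NFKBIA in the DLD1-labelled line was lost on leaving out 6, with 0.11 without wild-type OTS964 replicate 1 and 1.72 without replicate 2. CXCL1 in Cal51 ran from 3.78 to 5.78 over the alternatives. Its G579S libraries there averaged 0.292 CPM with OTS964 and 1.73 CPM with DMSO, close to the limit of counting. The wild-type ones averaged 5.1 CPM with OTS964 and 1.34 CPM with DMSO.

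The response of one wild-type line differed from the mean of the others for 8 results. These were NFKBIA in A375 (-1.39), IL6 and NFKB2 in Cal51 (-2.75 and -2.26), and NFKB2 (1.67), RELB (1.19), NFKBIE (1.17), NFKBIA (1.13) and IL6 (-1.66) in MDA-MB-231. Both IL6 values rest on the DLD1-labelled cells, listed at 0 with DMSO. Among all genes, 4.67% passed in A375, 13.9% in Cal51, 4.84% in the DLD1-labelled line and 24.4% in MDA-MB-231.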

How the results depend on the processing

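The 9 calls across wild-type lines were kept under RLE size factors, library totals, no filter, TPM-derived counts, DESeq2, the replicate block, with all DLD1-labelled wild-type libraries removed and on leaving out each library (9 to 9 calls). With library totals NFKB2 also passed. In G579S cells across lines 0 genes passed in edgeR and 1 with DESeq2 (0 to 1 on leaving out a library). Within G579S lines the 2 calls became 1 with RLE size factors, 1 with library totals, 5 with DESeq2 and 6 with the DLD1-labelled wild-type libraries removed (1 to 6 on leaving out a library). Between lines 18 of 30 differences passed without those libraries, against 32 of 60 (29 to 35 on leaving out a library). For transcript usage, 2 genes passed with the replicate block and 2 without the DLD1-labelled libraries, against 1 (0 to 2 on leaving out a library). Leaving out a library gave 8 to 9 calls for the interaction across lines, 27 to 32 within wild-type lines, 16 to 23 for the interaction within lines, 5 to 11 for genotype under DMSO and 6 to 14 for one line against the others.

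Only 2 values passed the test with the opposite sign on leaving out a library, both of one wild-type line against the others: NFKB1 in A375 was 1.16 (-0.1 with all libraries; -0.43 to 1.16 over the libraries left out) without MDA-MB-231 wild-type OTS964 replicate 2, and NFKBIA in the DLD1-labelled line was -0.97 (0.05 with all libraries; -0.97 to 0.64) without its OTS964 replicate 1. The cause was not tested. Replicate numbers showed no sign of pairing the samples. The log2 CPM differences between replicates 1 and 2 were compared between groups of the same line. They had r between -0.04 and 0.07 over 24 pairs of groups. The replicate block gave 9 calls across wild-type lines, 33 within them, 2 within G579S lines and 19 for the interaction within lines. With 2 libraries per group, IL6 and CCL2 at few reads are limited by counting.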
